A study of Mus musculus with 2 samples.

Results

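Distal accessible regions that were most open in epiblast nuclei of the mouse embryo were described, with 1000 regions taken out of 229480 deposited peaks. Epiblast nuclei were taken as the 800 barcodes with the highest mean ln(1 + UMIs per 10000) of Nxph1, Kcnh8, Slc35d3, Hs3st5 and Grin2b, where a UMI is a molecular identifier that marks 1 RNA molecule. Only barcodes with 3000 to 30000 UMIs and at least 2000 peak counts were ranked, which left 11605 of 15341. A region could become a member if it was an autosomal peak over 1000 bp from every listed gene start with at least 100 counts in those 800 barcodes. Of 199715 autosomal peaks that far from starts, 21210 (10.6%) had such a count and are called eligible. The 1000 with the highest CPM in the class (counts scaled to 1000000 peak counts) over the CPM of the other 10805 barcodes became the members, which is 4.71% of the eligible peaks.

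Mouse embryos at embryonic day 7.0 had been pooled, dissociated with TrypLE and taken to nuclei, and RNA and transposase-accessible DNA were read from the same nuclei. There was 1 RNA library and 1 accessibility library, so no comparison had a replicate and none was tested. All intervals are 95% ones for counting error alone, except those on shares of genes. The latter treat genes as independent draws and hold no counting error of UMIs. The title, age and protocol gave E7.0 embryos, while the tissue, cell type and strain fields of the labels gave small intestine or distal colon, Goblet cells and RedMUC298trTg. No genotype, treatment or other strain was given, and no barcode could be traced to an embryo.

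The epiblast is the pluripotent epithelium from which all tissues of the embryo proper arise, and at gastrulation its cells either leave through the primitive streak as mesoderm and endoderm or stay behind as ectoderm. Pluripotent cells in this state are held by transcription factors such as POU5F1, SOX2 and OTX2. Much of the cell-type pattern of open chromatin lies away from gene starts, at distal elements such as enhancers, which can act on promoters over long distances.

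The class had more RNA of epiblast genes, and of part of the anterior ectoderm list, than the other barcodes. The list of 12 epiblast genes summed to 4048 RNA CPM in the class and 2125 in the other barcodes, which is 1.90-fold (1.88 to 1.92). The anterior ectoderm list stood at 830 against 427 CPM, or 1.94-fold (1.90 to 1.99), with 10 of 12 genes higher. Pou3f1 (305 CPM) and Otx2 (188 CPM) gave most of that sum, and the epiblast expresses both too. The forebrain genes Hesx1 (0.581-fold) and Six3 (0.886-fold) were the 2 that were not higher, and Sox1 had 1 UMI in the class, Lhx5 10 and Pax6 26. The lists of primitive streak, mesoderm, blood and vessel progenitors, node, definitive, visceral and parietal endoderm, extraembryonic ectoderm and ectoplacental cone lay at 0.166 to 0.408 of the other barcodes. Maternal decidua genes stood at 30.7 against 50.1 CPM (0.613-fold) and immune genes at 0.924-fold, on 32 UMIs in the class. Goblet and intestinal markers reached 9.87 CPM, with Muc2, Tff3, Clca1, Spink4, Agr2 and Cdh17 at 0 UMIs. By the list with the highest standardized score, 353 class barcodes were epiblast, 291 anterior ectoderm and 156 another. This tally does not show that the class holds anterior ectoderm: the anterior ectoderm group outside the class had epiblast genes at levels like those of the class (Pou5f1 216 against 184 CPM, Dnmt3b 1644 against 1599 CPM). Of those 156, 105 had a decidual, immune or gut list highest, and 18.6% were called as doublets, against 4.25% of the class. The class is a range of a score and not a cell type: 115 of its barcodes lay within 0.05 above the lowest score and 182 others within 0.05 below it. Depth was alike, with medians of 11283.5 UMIs and 22136.5 peak counts in the class and 11355 UMIs and 19239 peak counts in the others.

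Most members had no sequence in the reference used here, which held only 300 bp windows around RefSeq gene starts. A whole window lay inside 4 of the 959 members on chromosomes with windows (0.417%), against 2.58% of 20606 eligible peaks. These 4 are printed because each holds the whole window of a RefSeq start that the deposited gene table does not list, so they are distal by the table and start regions by RefSeq. Part of a window lay inside 6 members, these 4 among them. No RefSeq start within 1000 bp was found for 982 of the 1000. These 982 include 41 members on a chromosome without windows, which had no RefSeq starts to be checked against. The window at the start of Miat is added because Miat, a long noncoding RNA gene, had one of the largest RNA differences among the neighbours described further on. Sequences are from RefSeq on GRCm38.p6, run 5′ to 3′ on the strand of the gene, and stand in lower case with motif matches in capitals. The Filip1 window is chr9:79830933-79831232 (minus strand) in the member ranked 142, the Gm36352 window chr6:15639708-15640007 (minus) in rank 199, the Fam178b window chr1:36593283-36593582 (minus) in rank 715, and the Gm34017 window chr12:109509312-109509611 (plus) in rank 773. The Miat window is chr5:112228899-112229198 (minus).
Filip1: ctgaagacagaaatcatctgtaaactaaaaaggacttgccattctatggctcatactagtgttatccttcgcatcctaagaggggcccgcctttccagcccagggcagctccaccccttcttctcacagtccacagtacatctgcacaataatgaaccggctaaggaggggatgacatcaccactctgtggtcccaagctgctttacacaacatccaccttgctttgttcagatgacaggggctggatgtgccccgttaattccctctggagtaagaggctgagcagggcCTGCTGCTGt
Gm36352: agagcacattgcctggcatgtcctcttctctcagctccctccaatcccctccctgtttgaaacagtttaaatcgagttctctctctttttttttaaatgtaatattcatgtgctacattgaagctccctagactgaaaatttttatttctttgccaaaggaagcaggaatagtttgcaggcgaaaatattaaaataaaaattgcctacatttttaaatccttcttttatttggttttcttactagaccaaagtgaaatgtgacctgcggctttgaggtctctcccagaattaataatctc
Fam178b: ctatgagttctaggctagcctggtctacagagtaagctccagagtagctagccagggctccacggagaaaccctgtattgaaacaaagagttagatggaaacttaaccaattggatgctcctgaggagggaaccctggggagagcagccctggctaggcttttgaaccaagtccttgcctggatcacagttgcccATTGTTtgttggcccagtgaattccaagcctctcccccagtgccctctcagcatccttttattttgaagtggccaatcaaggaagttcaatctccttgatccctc
Gm34017: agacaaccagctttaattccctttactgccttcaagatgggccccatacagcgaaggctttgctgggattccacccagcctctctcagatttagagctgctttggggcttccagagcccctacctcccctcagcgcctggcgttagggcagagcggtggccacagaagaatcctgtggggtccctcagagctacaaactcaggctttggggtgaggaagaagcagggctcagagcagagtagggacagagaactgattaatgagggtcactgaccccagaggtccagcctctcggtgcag
Miat: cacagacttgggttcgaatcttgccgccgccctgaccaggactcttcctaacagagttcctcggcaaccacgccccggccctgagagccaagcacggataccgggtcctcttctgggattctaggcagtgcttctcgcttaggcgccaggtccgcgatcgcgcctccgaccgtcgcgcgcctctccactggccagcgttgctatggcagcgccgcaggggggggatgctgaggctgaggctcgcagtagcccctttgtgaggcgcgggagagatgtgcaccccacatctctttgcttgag

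A set of short motifs was searched on both strands of these windows. For factors of epiblast and ectoderm the letters were ATGCAAA for the POU family, ATTGTT for the SOX family, CTGCTG for the ZIC family and TAATCC for the OTX family. For epithelium and trophoblast they were GGAATG for the TEAD family and ACCGGTT for the GRHL family. For mesoderm and endoderm they were AGATAA for zinc fingers of the GATA family, AGGTGTG for T-box factors, TGTTTAC for forkhead factors and CTTTGAT for the TCF family. TGACTCA for the AP-1 family, CAGGTG for an E-box and CCGGAAG for the ETS family completed the set. The Filip1 window held the ZIC letters at positions 291 and 294 from its 5′ end, a pair that overlaps. The Fam178b window held the SOX letters at position 196. Of 31365 autosomal windows of the same length, 31.8% held the ZIC letters and 10.6% the SOX letters, so such matches are frequent in start regions. No match was found in the other printed windows, which says only that these letters are not there. The Miat window was richest in CpG, with 25 CpG pairs and 64.3% G and C, while the 4 windows inside members held 1 to 5 CpG pairs and 36.7% to 56.7% G and C. No member lay over an annotated miRNA hairpin.

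The values that chose the members are given as a description. Class over other folds ran from 2.59 to 5.99 with a median of 2.96, and 55 members reached a fold of 4. The eligible peaks had a median of 1.28, and 12.9% of them were at least 2-fold higher in the class, which all members are by the rule. At the threshold, the last member, near Mylk4, had 142 class counts and 657 other counts, and the first peak outside, near Gm44113, had 118 and 546. The next peak, near Dnmt3b, had 188 and 870, so the set has no gap at its edge. Members were sparse: 100 to 835 class counts each, with a median of 155. A member was open, with at least 1 count, in a median of 9.25% of class barcodes (5.63% to 39.5%) and 2.74% of the others.

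**Figure D1:**
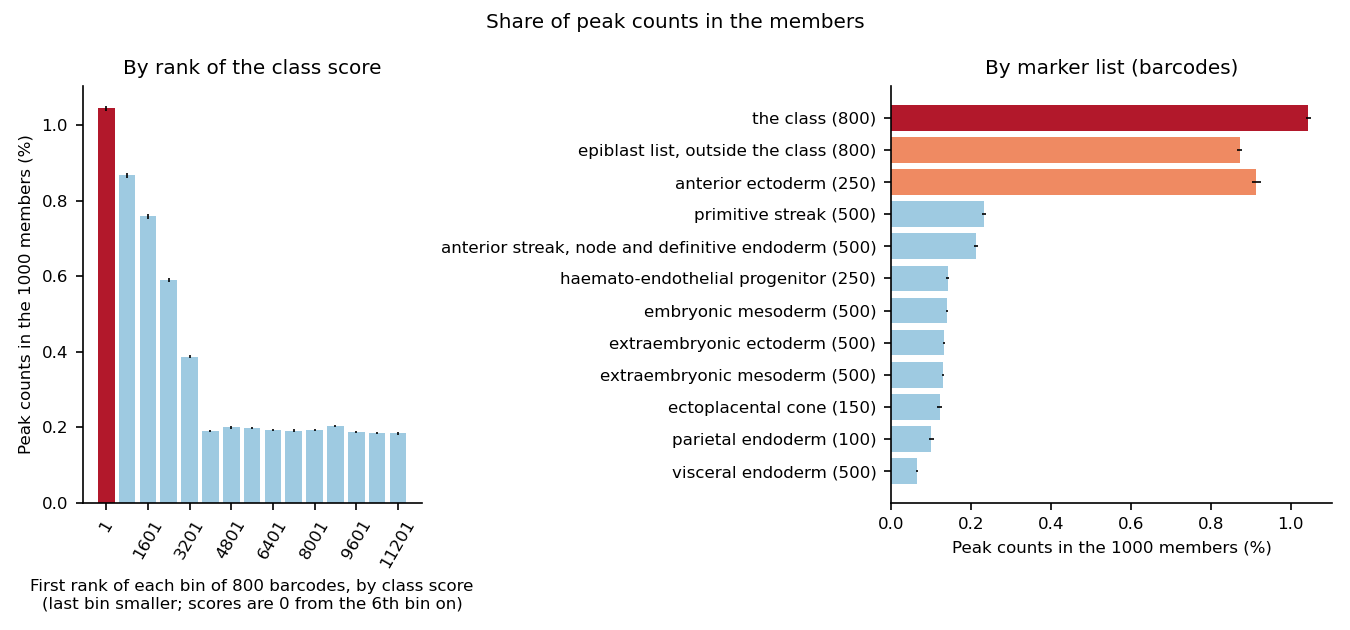
Percent of all peak counts that fell in the 1000 members, by bins of 800 barcodes ranked on the class score (left; the last bin is smaller) and by groups of barcodes highest in a marker list (right; number of barcodes in parentheses). Bars are pooled values, thin lines 95% counting intervals, and the class is dark red; the share falls from 1.044% in the class over the next bins to about 0.19% where the score is 0, and it is lowest in visceral endoderm at 0.0643%.

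Barcodes just below the class carried much of the same accessibility. The members took 1.044% of peak counts in the class (1.038 to 1.051), 0.867% in the 800 barcodes next in score and 0.758% in the 800 after those. The share went on falling to 0.590% and 0.387% in the next bins of 800. In the 7613 barcodes with a score of 0 it was 0.193%, and their bins of 800 ranged from 0.185% to 0.203% with no order. The 800 barcodes outside the class that were highest in the epiblast list stood at 0.872% (0.866 to 0.879). The other barcodes as a whole therefore include many with an epiblast-like pattern, and leaving these next 1600 barcodes out of them moved the summed class over other value from 3.02 to 4.18.

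The spread over barcodes is given as a description, since the members were chosen for their share in the class against barcodes that include these groups. The middle 50% of class barcodes had member shares from 0.921% to 1.21%. In the 800 barcodes next in score that span was 0.752% to 1.04%, in anterior ectoderm 0.737% to 1.11% and in barcodes of the epiblast list outside the class 0.730% to 1.03%, spans that overlap that of the class. In visceral endoderm it was 0.0295% to 0.0708%, and in primitive streak 0.156% to 0.274%, spans that lie below it. Barcodes outside the middle 50% were not compared. Within the class, barcodes whose highest list was epiblast had a pooled share of 1.079% (1.069 to 1.089) and those of anterior ectoderm 1.096% (1.085 to 1.108). Class barcodes with another highest list were lower, at 0.897% (0.885 to 0.910), and they were also the ones rich in doublet calls. The part of doublets in that lower value was not tested.

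Other cell types were read as groups of 100 to 500 barcodes outside the class that scored highest for a marker list, and these groups are part of the other barcodes in the rule. The group named anterior ectoderm after its list was closest to the class at 0.914% (0.902 to 0.926), so the class was 1.14-fold above it. Epiblast genes stood there at levels like those of the class (Pou5f1 216 against 184 CPM), so these genes do not set it apart from the epiblast. Most genes of its own list, which chose the group, were higher there than in the class. Six3 had 15.7 against 3.46 CPM, Hesx1 6.14 against 2.03 and Otx2 311 against 188, while Sox1 and Zic1 were not higher. Here and below the name stands for the list, and closeness to this group does not show sharing with another tissue. The primitive streak, through which epiblast cells leave, stood at 0.233%, and anterior streak, node and definitive endoderm at 0.213%. The class was 4.49-fold and 4.91-fold above these. Products of the streak were lower again: haemato-endothelial progenitors had 0.142%, embryonic mesoderm 0.140% and extraembryonic mesoderm 0.130%, with counting intervals of the first pair overlapping.

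Among extraembryonic tissues, visceral endoderm had the lowest share of all groups. Extraembryonic ectoderm, the trophoblast layer next to the epiblast, stood at 0.132% (0.129 to 0.135), which overlaps extraembryonic mesoderm. Ectoplacental cone, its outer continuation, had 0.122%, and parietal endoderm, which lines the yolk cavity, 0.101%. Visceral endoderm, the nutritive layer that encloses the epiblast, had 0.0643% (0.0621 to 0.0666), and the class was 16.2-fold above it (15.7 to 16.8). The 20210 eligible peaks that were not members also differed, but less, with 24.2% of peak counts in the class, 22.2% in primitive streak, 17.3% in extraembryonic ectoderm and 14.2% in visceral endoderm. For visceral endoderm that is a ratio of 1.71 in other eligible peaks beside 16.2 in members. Members were chosen for high folds over barcodes that include these groups, so the larger ratio in members largely follows from the rule. Neighbouring groups in the order haemato-endothelial progenitors, embryonic mesoderm, extraembryonic ectoderm and extraembryonic mesoderm did not all differ beyond counting error, and their order changed with the choice of barcodes. With the upper 0.5 of each type the class was 9.13-fold above haemato-endothelial progenitors and 7.93-fold above extraembryonic ectoderm, the reverse of 7.38-fold and 7.90-fold with all barcodes.

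**Figure D2:**
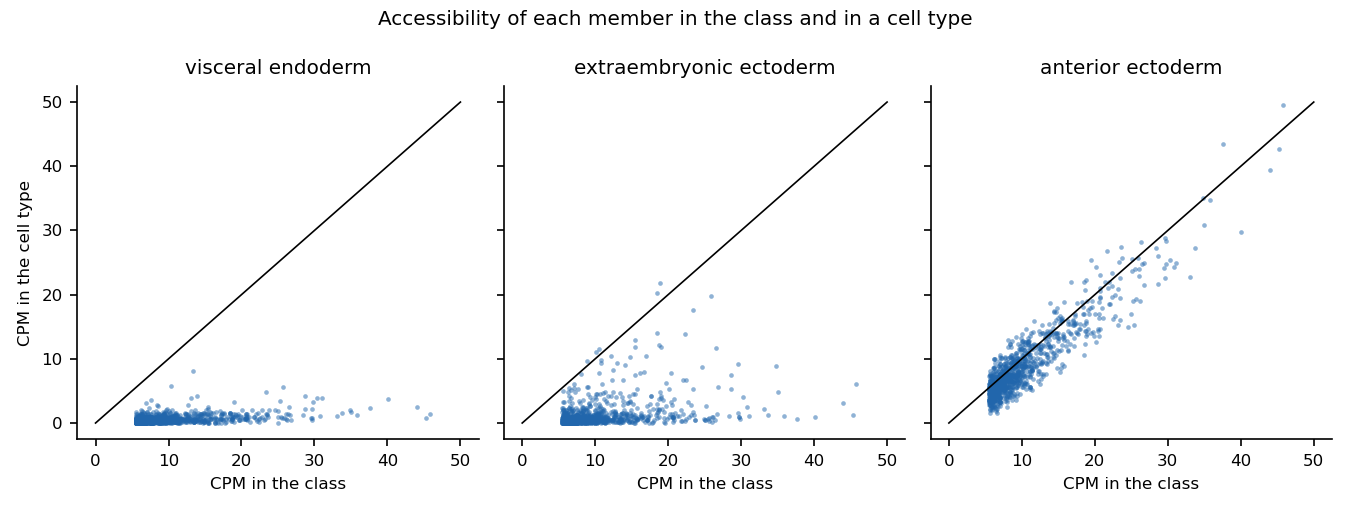
Each point is 1 of the 1000 members, with its peak CPM in the class on the horizontal axis and in 1 cell type on the vertical axis (visceral endoderm, extraembryonic ectoderm, anterior ectoderm); the line marks equal values. In visceral endoderm all members lie below the line, in extraembryonic ectoderm 5 lie above it, and in anterior ectoderm 266 are at or above it.

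Single members followed this order only in part. The counts of members here and in the next paragraphs stand without a share over all eligible peaks. Members were chosen for high folds over barcodes that include these types, so low values there partly restate the rule. Among the 10 cell types, anterior ectoderm had the highest CPM for 952 members. With anterior ectoderm set aside, primitive streak was highest for 345, anterior streak with node and definitive endoderm for 229, extraembryonic ectoderm for 108 and visceral endoderm for 8. Parietal endoderm was highest for 78, haemato-endothelial progenitors for 77 and ectoplacental cone for 74, more than extraembryonic mesoderm (41) and embryonic mesoderm (40), although the pooled share was lower in parietal endoderm and ectoplacental cone than in both mesoderms. The first 3 groups hold fewer barcodes, so a single member's CPM in them rests on few counts. In the 6 types of 500 barcodes, 894 members stayed below 0.5 of their class CPM in every type and 363 below 0.25. No count at all was seen for 120 members in visceral endoderm and 103 in extraembryonic ectoderm, but for 2 in primitive streak. In parietal endoderm, read from 100 barcodes, 453 had no count, which the low depth of that group allows.

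A few members were shared with the trophoblast. In extraembryonic ectoderm 5 members were at or above the class, and none was in the other 5 types of that size. The peak at chr2:130739950-130740852, in the span of 4930402H24Rik and nearest to Slc4a11, had 18.9 CPM in the class and 21.8 in extraembryonic ectoderm. The peak at chr3:122936594-122937512, inside Usp53, had 18.5 and 20.2 CPM. The others lay near D730050B12Rik (10.1 and 11.1 CPM), Gm12146 (10.5 and 11.5) and A530053G22Rik (8.93 and 9.71). Klf12, a zinc finger repressor gene, holds a further one with 8.11 CPM in the class and 7.64 in extraembryonic ectoderm. The counts behind these values ran from 70 to 344. In the smaller groups, 5 members were at or above the class in ectoplacental cone, 3 in parietal endoderm and 1 in haemato-endothelial progenitors.

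In visceral endoderm the nearest approach was the peak at chr12:109509306-109510134 that contains the printed Gm34017 window. It had 13.3 CPM in the class and 8.16 in visceral endoderm, or 0.613 of the class. Peaks inside Ccdc66 (0.561 of the class), Rgma (0.470), which encodes a guidance molecule and BMP co-receptor, and Hsf2 (0.450), a heat shock factor, followed. In primitive streak the members closest to the class had Dab2 (0.670), at 403449 bp, and Myocos (0.668), at 6612 bp, as their nearest genes. Dab2, an endocytic adaptor, is a visceral endoderm gene, and its RNA was 116 CPM in the class and 510 in the other barcodes, so this distant peak and its nearest gene went opposite ways.

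The members with the highest folds had 100 to 268 class counts, on both sides of the median member, and were low in most lineages. The first, inside Crybg1 (chr10:44060059-44060955), had 5.48 CPM in the class, 5.28 in anterior ectoderm and 0.916 in all other barcodes. Its values in the 6 large types were 0.224 CPM in visceral endoderm, 0.437 in extraembryonic ectoderm, 0.271 in embryonic mesoderm, 0.182 in primitive streak, 0.415 in anterior streak and 0.390 in extraembryonic mesoderm. Each of those 6 values rests on 2 to 4 counts, so they cannot be ordered. The fold of 5.99 has a counting interval of 4.21 to 8.41.

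The third by fold lay inside Ptprc, the gene of the leukocyte surface phosphatase CD45 (chr1:138153844-138154759). It had 14.7 CPM in the class, 10.6 in anterior ectoderm and 9.98 in the 800 barcodes next in score, and was open in 15.1% of class barcodes and 2.67% of the others. Extraembryonic mesoderm and haemato-endothelial progenitors had 0 counts there, primitive streak 0.820 CPM and visceral endoderm 0.671 CPM. Ptprc RNA was low in both groups but higher in the class, at 0.712 against 0.112 CPM (6.38-fold, 2.20 to 16.6), on 7 and 15 UMIs, and was 0 in all 10 cell types. The immune marker list as a whole reached 3.26 CPM in the class and 3.52 in the others, with Lyz2, Tyrobp and C1qa at 0 in the class.

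The remaining 8 of the 10 highest folds ranged from 5.73 near 4933427D06Rik to 4.82 near Slitrk5. Peaks inside Arhgap20 (10.7 against 2.11 CPM) and Runx1t1 (8.72 against 1.79), a corepressor gene, and those near 9330118I20Rik, C730027H18Rik and 1700061F12Rik were low in all 6 large types. The peak near Slitrk5, a synaptic adhesion gene, had 6.47 CPM in the class and 5.48 in anterior ectoderm, with 0 in extraembryonic ectoderm. The peak near 4933427D06Rik had 6.63 CPM in the class but 1.62 in anterior ectoderm, unlike the others of the 10. The peak inside Rsph1, a ciliary spoke gene, was not low in every extraembryonic group: it had 8.66 CPM in the class, 4.87 in anterior ectoderm, 7.69 in parietal endoderm and 4.40 in ectoplacental cone. Those last groups are small, of 100 and 150 barcodes.

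The members with the highest accessibility were open in 33.6% to 39.5% of class barcodes, a different set from those with the highest folds. The peak inside Ankrd35 (chr3:96680221-96681107) had 45.8 CPM in the class, 49.5 in anterior ectoderm and 14.0 in the other barcodes. Across the 6 large types it had 9.56 CPM in primitive streak, 7.13 in embryonic mesoderm, 6.73 in extraembryonic mesoderm, 6.11 in extraembryonic ectoderm, 3.94 in anterior streak and 1.34 in visceral endoderm. The peak 7248 bp from Foxi3, a forkhead gene of placode and ear development, had 45.3 CPM in the class, 42.6 in anterior ectoderm, 11.7 in primitive streak and 0.783 in visceral endoderm. Foxi3 RNA was low in both, at 2.85 CPM in the class and 1.15 in the others. The peak 15295 bp from Trio, a gene for a guanine nucleotide exchange factor, was sharper, with 37.6 CPM in the class, 43.4 in anterior ectoderm and 0.655 to 4.83 in the 6 large types. Peaks near Gm36635 (44.0 CPM) and Hsd17b3 (40.1) completed the 5, and the latter kept 11.1 to 12.9 CPM in streak and mesoderm.

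**Figure D3:**
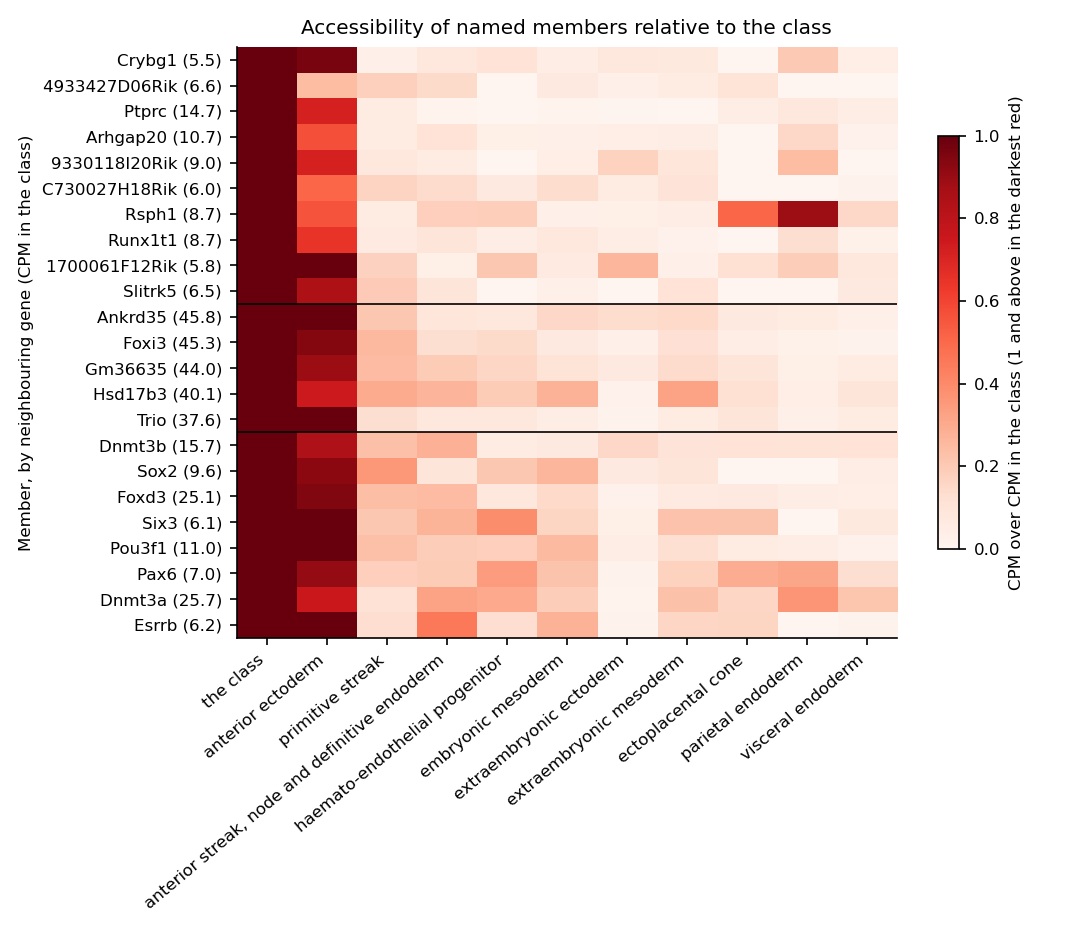
Peak CPM of named members (rows, by nearby gene, with class CPM in parentheses) in 10 cell types (columns), each divided by the CPM of that member in the class; 1 and above is the darkest red. The upper block holds the 10 highest folds, the middle block the 5 highest in class CPM and the lower block members within 50000 bp of epiblast, anterior ectoderm and pluripotency genes; the anterior ectoderm column is dark in nearly all rows, and Rsph1 is the row with dark cells in parietal endoderm and ectoplacental cone.

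Members lay near several genes that mark or hold epiblast identity, and also near genes of unrelated lists. One lay within 50000 bp of a start for 3 of 9 autosomal epiblast genes (Dnmt3b, Sox2, Foxd3), 3 of 11 anterior ectoderm genes (Six3, Pou3f1, Pax6) and 6 of 30 pluripotency and epiblast regulators, against 4.10% of all 30364 autosomal genes. An eligible peak lay that near for 9 of 9, 10 of 11 and 28 of 30 genes of these lists but for 58.6% of all genes, so the lists had more peaks to draw from. The 6 were Sox2, Foxd3, Dnmt3a, Dnmt3b, Pou3f1 and Esrrb. The lists of maternal decidua (Des, Col3a1) and immune cells (Ptprc, C1qa) had 2 of 8 each, a share like those above, and primitive streak, haemato-endothelial progenitors and extraembryonic ectoderm had 1 gene each. The lists of visceral endoderm, parietal endoderm, embryonic mesoderm, extraembryonic mesoderm and anterior streak with node had 0 of 12 each, the ectoplacental cone list 0 of 11 and the epithelial genes 0 of 12. All 12 embryonic mesoderm genes and all 12 epithelial genes had an eligible peak within that distance, but only 7 of 12 visceral endoderm genes. The lists are short, no test was made of any difference between them, and nearness to members was not particular to the epiblast lists.

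Dnmt3b, the de novo DNA methyltransferase of the epiblast, was near the member at chr2:153622339-153623231, which lies inside the neighbouring gene Commd7. That member had 15.7 CPM in the class, 13.2 in anterior ectoderm, 4.36 in anterior streak and 1.08 to 3.64 in the other large types. Dnmt3b RNA was 1599 CPM in the class and 745 in the others, a 2.15-fold difference (2.11 to 2.18). Dnmt3a, the related methyltransferase, held a member at chr12:3889600-3890465 with 25.7 CPM in the class, 19.3 in anterior ectoderm, 8.30 in anterior streak, 5.59 in visceral endoderm and 0.327 in extraembryonic ectoderm. Its RNA was 179 against 82.4 CPM, or 2.17-fold, so both methyltransferase genes were higher in RNA by a similar ratio.

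Sox2, a core pluripotency factor that trophoblast also uses, had a member at chr3:34670917-34671834, nearest to the start of Sox2ot. It had 9.65 CPM in the class, 8.93 in anterior ectoderm, 3.46 in primitive streak, 2.53 in embryonic mesoderm and 0.655 in extraembryonic ectoderm. Sox2 RNA was 75.3 CPM in the class and 43.1 in the others, but 141 CPM in extraembryonic ectoderm. High Sox2 RNA in extraembryonic ectoderm thus came with few counts at this member, while the class had less Sox2 RNA and higher accessibility there.

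Foxd3, a forkhead factor of the epiblast and later of neural crest, was near the member at chr4:99641826-99642737. It had 25.1 CPM in the class, 23.7 in anterior ectoderm and 0.546 to 6.23 in the large types, and Foxd3 RNA stood at 61.2 against 22.1 CPM (2.77-fold). Pou3f1, a POU factor of ectoderm, was nearest to the member at chr4:124639512-124640382, with 11.0 CPM in the class, 12.8 in anterior ectoderm and 0.546 in extraembryonic ectoderm. Pou3f1 RNA was 305 CPM in the class, 508 in anterior ectoderm and 460 in extraembryonic ectoderm, the same split between RNA and peak as at Sox2.

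RNA was not higher in the class at every gene of these lists. Six3, a forebrain factor, was nearest to the member at chr17:85606179-85607004, which had 6.08 CPM in the class and 6.29 in anterior ectoderm, while its RNA was 3.46 CPM in the class and 3.90 in the others (0.886-fold, 0.607 to 1.254). Pax6, an eye and forebrain factor, held a member with 6.96 CPM in the class and 6.29 in anterior ectoderm, and here RNA was higher in the class too, at 2.65 against 0.692 CPM (3.82-fold, 2.38 to 5.96), on 26 and 93 UMIs. Esrrb, a nuclear receptor of naive pluripotency and trophoblast, held the member at chr12:86364581-86364995 with 6.19 CPM in the class and 0.109 in extraembryonic ectoderm, and its RNA was lower in the class, at 6.21 against 27.1 CPM. Cdx1, a homeobox gene of the streak, and Lmo2, a blood gene, also had members near them with RNA at 0.246 and 0.334 of the other barcodes.

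The class genes themselves, whose RNA chose the barcodes, had members within 50000 bp in 3 of 5 cases. The peak inside Pex7 near Slc35d3, a solute carrier gene, had 20.8 CPM in the class, 23.1 in anterior ectoderm and 0.361 to 1.87 in the large types. Peaks lay inside Hs3st5, a heparan sulfate sulfotransferase gene (15.5 CPM), and Grin2b, an NMDA receptor subunit gene (9.70 CPM). The Hs3st5 peak kept 7.42 CPM in extraembryonic ectoderm. Of 24 neuronal synapse and adhesion genes, 4 had a member that near, and 3 of the 4 were these class genes, the other being Lrrtm4.

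Members lay farther from gene starts than other eligible peaks. Their median distance to the nearest listed start was 32944.5 bp (quartiles 12471 and 89801), against 12381 bp for the other eligible peaks. Between 1000 and 10000 bp lay 21.0% of members and 44.0% of the others, and over 200000 bp 10.3% and 1.94%. In all, 44.5% of members and 49.3% of other eligible peaks fell inside the span of a RefSeq coding gene. Widths were alike, with medians of 890 and 886 bp. By chromosome, the members made up from 2.82% of the eligible peaks on chromosome 19 to 7.01% on chromosome 3.

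**Figure D4:**
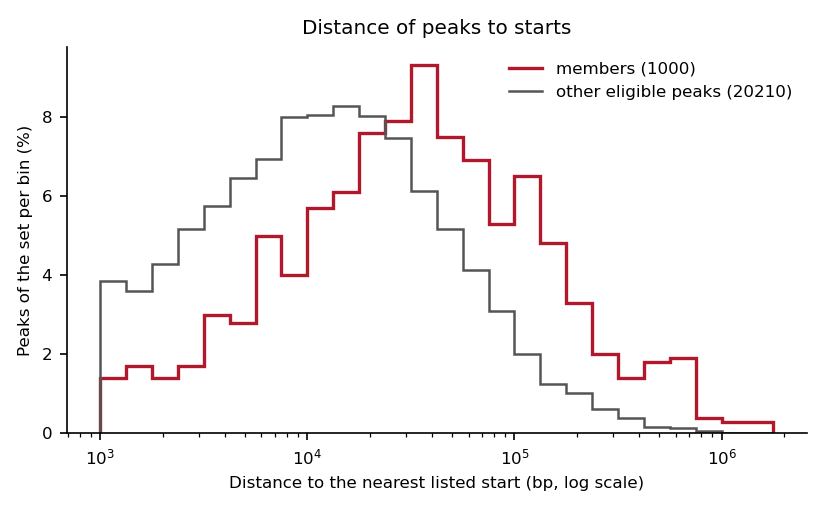
Percent of peaks per bin of distance to the nearest listed gene start (log axis), for the 1000 members (red) and the 20210 other eligible peaks (grey). The members are shifted to larger distances, with medians of 32944.5 and 12381 bp.

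Most members had a nearest gene to themselves. They were nearest to 923 different genes, of which 850 had 1 member, 69 had 2 and 4 had 3, and 40 members had another within 12.5 kb, in 20 pairs. Of the other eligible peaks 54.2% had such a neighbour, but with 20210 peaks in that set the shares cannot be compared. Wwc1, a Hippo pathway regulator, Sdk1, an adhesion gene, Nav2, a cytoskeletal guidance gene, and A530046M15Rik had 3 members each. Nav2 RNA was 464 CPM in the class and 103 in the others (4.51-fold, 4.36 to 4.66), and 255 CPM in anterior ectoderm against 25.9 to 65.4 in the large types. Wwc1 RNA was 176 against 146 CPM and Sdk1 RNA 78.6 against 123 CPM, so 3 members near a gene went with RNA in either direction. By gene span, 404 coding genes held members. Dab1, a Reelin pathway adaptor gene of 1125 kb, and Nav2 held 4 each, out of 6 and 17 eligible peaks, and Dab1 RNA was 1.94-fold higher in the class.

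Among other genes with a pair of members, Efna5, an ephrin ligand, had RNA of 993 CPM in the class and 449 in the others (2.21-fold). It was also high in anterior streak with node (680 CPM), extraembryonic mesoderm (642), anterior ectoderm (638), embryonic mesoderm (569) and primitive streak (543), and at 10.6 CPM in extraembryonic ectoderm. Rapgef5, a Rap exchange factor, stood at 286 against 105 CPM (2.73-fold), and its 2 members lay 3697 and 4157 bp from its starts. Platr22, a noncoding gene, stood at 57.3 against 23.1 CPM and Rims4, a presynaptic gene, at 12.01 against 4.001 CPM. Trio stood at 536 against 291 CPM (1.84-fold). Plekhg1 (1.52-fold) and Ankrd35 (1.31-fold) were closer to equal.

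Many genes nearest to members had higher RNA in the class. With the 5 class genes left out, 567 of the 923 nearest genes had at least 50 UMIs, and 126 of them (22.2%; 18.9 to 25.9) were at least 2-fold higher in the class. The background over all 17670 genes tested was 6.34%, or 6.31% of 17665 with the class genes left out there too, and the genes nearest to other eligible peaks gave 8.35%. At least 2-fold lower were 46 (8.11%), where the background was 12.9% and the other eligible set 14.2%. Median folds were 1.196 and 0.949. The 2 sets share genes, since a gene can be nearest to peaks of both kinds. RNA and accessibility came from the same nuclei, and epiblast nuclei were chosen on RNA, so these shares describe this pool only.

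**Figure D5:**
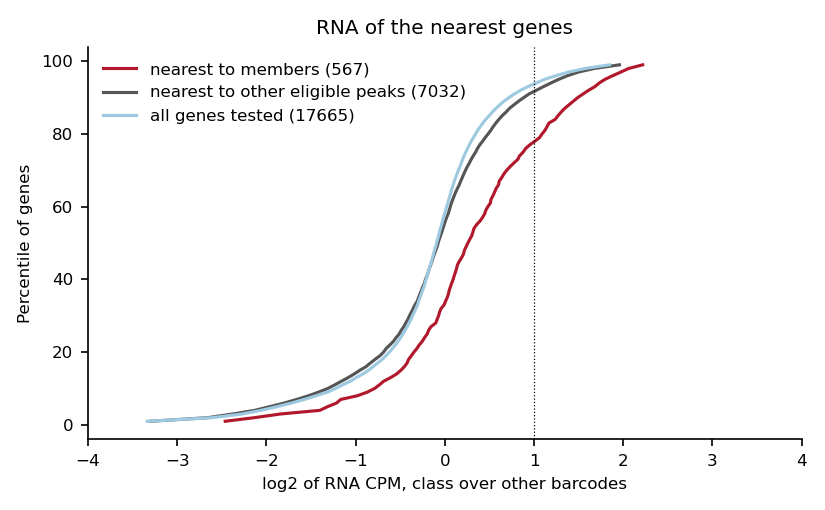
Percentiles of the log2 ratio of RNA CPM, class over other barcodes, for genes nearest to members (red, 567 genes), nearest to other eligible peaks (grey, 7032) and all genes tested (blue, 17665), each with at least 50 UMIs and without the class genes. The dotted line marks a 2-fold difference, above which lie 22.2% of the first set and 8.35% of the second.

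The share was above that of other eligible peaks in each band of distance. For genes whose nearest member lay at 1000 to 10000 bp, 24.5% were at least 2-fold higher, against 7.54% for other eligible peaks. At 10000 to 50000 bp the shares were 20.5% and 8.68%, at 50000 to 200000 bp 20.8% and 12.4%, and beyond 200000 bp 29.6% (54 genes, 17.98 to 43.6) and 21.0% (15.3 to 27.8), whose intervals overlap. The largest distances thus came with high shares in both sets. By fold rank of the members, the first 250 gave 28.7% and the last 250 gave 19.1%, with overlapping intervals (21.3 to 37.1 and 13.5 to 25.7). Of all 780 genes with at least 50 UMIs and a member within 50000 bp, nearest or not, 16.3% were at least 2-fold higher, against 5.26% of genes with an eligible peak and no member there.

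Few promoters of the nearest genes were 2-fold higher in the class. For 702 nearest genes, the peaks within 1000 bp of their starts held at least 100 counts, not counted in the class alone. Of these genes, 19 (2.71%) had promoter accessibility at least 2-fold higher in the class, against 1.65% for genes nearest to other eligible peaks. The background of 1.48% is over single start peaks with at least 100 class counts, which is an unlike limit. At least 2-fold lower were 37 (5.27%), against 4.33% for genes nearest to other eligible peaks, so lower promoters outnumbered higher ones. Some promoters had few class counts, however, such as that of 4930405D11Rik with 3 (0.194-fold). Miat was among the 19 genes with a higher promoter. Its promoter had a fold of 2.23 and its RNA a fold of 4.84 (64.4 against 13.3 CPM, 4.41 to 5.30), with 44.1 CPM in anterior ectoderm and 0.262 to 5.47 in the large types. The member 7813 bp away ranked 699. Promoters of Gria1 and Fam135b were also past 2-fold, at 2.04 and 2.03.

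The nearest genes with the largest RNA folds are given with the class genes left out. The class genes Nxph1 (23.8-fold), Hs3st5 (11.6-fold) and Grin2b (10.8-fold) were higher still, but their RNA chose the barcodes. Gria1, an AMPA receptor subunit, had 26.96 CPM in the class, 10.7 in anterior ectoderm and 3.71 in the other barcodes (7.27-fold, 6.24 to 8.45), and its member lay 31352 bp away. Insyn2b had 12.9 against 2.09 CPM (6.18-fold), with a member at 40979 bp. Arc, an immediate early gene of synapses, had 7.94 against 1.90 CPM (4.18-fold), with a member at 4241 bp that took 383 class counts. Dpp6 and Kcnd2, an auxiliary subunit and a pore subunit of the same potassium channel, were 4.15-fold and 3.92-fold higher, at 224 against 54.1 and 61.1 against 15.6 CPM. Their members were distant, at 124713 and 527875 bp. Fam135b (4.58-fold), Ugt8a (4.07-fold), a galactosyltransferase of myelin lipids, and Plce1 (4.01-fold), a phospholipase, completed the 10 with Miat and Nav2. The members nearest to Fam135b, Ugt8a and Plce1 lay at 172936, 7037 and 6783 bp.

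The nearest genes with the lowest RNA folds included genes read mainly in mesoderm, visceral endoderm or parietal endoderm. Cdh11, a mesenchymal cadherin, had 21.3 CPM in the class, 684 in embryonic mesoderm, 700 in extraembryonic mesoderm and 146 in the other barcodes (0.146-fold), and the member near it, 77129 bp away, was 3.34-fold higher in the class. Adamts9, an extracellular protease, had 37.7 against 195 CPM, with 777 CPM in parietal endoderm. Nostrin, a trafficking gene named for endothelial nitric oxide synthase, had 3.87 against 19.8 CPM, with 81.9 CPM in parietal endoderm and 61.1 in visceral endoderm but 4.45 in haemato-endothelial progenitors. Gad1, an enzyme that makes the transmitter GABA, had 2 UMIs in the class, or 0.203 against 3.13 CPM (0.0650-fold, 0.00785 to 0.236), and 16.2 CPM in embryonic mesoderm. The noncoding 6330411D24Rik had 2.44 against 15.2 CPM, with 67.9 CPM in visceral endoderm. At these 5 genes a region more open in epiblast nuclei was nearest to a gene read mainly elsewhere.

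Barcodes that the rule had not used gave a further reading of the same pool. Of 1796 shallower barcodes, with at least 1000 of each but under 3000 UMIs or under 2000 peak counts, the 100 highest in the class score had 0.755% of their peak counts in members (0.715 to 0.797), against 0.344% in the rest. That is 2.20-fold (2.07 to 2.33), beside 1.14-fold for the other eligible peaks. Single members were thinly covered there: 626 (62.6%) were higher in the 100 barcodes, beside 52.8% of other eligible peaks, and 338 had no count in them. These barcodes came from the same library, so they replicate neither the embryo pool nor the assay.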

How the data were processed

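Nuclear RNA and chromatin accessibility of 1 pool of E7.0 embryos were deposited by the authors as whole-number counts, not normalized, in 1 sparse matrix of 32285 genes, 229480 peaks and 15341 barcodes, with tables that name the genes, peaks and barcodes and give positions. All barcodes serve both libraries, which summed to 182201512 UMIs and 273131304 peak counts. The software is cellranger-arc 2.0.0, per the file headers; the submitters' processing notes name Cell Ranger ARC 2.0.0 and mm10. The aligner and peak caller are not given in the sources used here.

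Members and lists were chosen with earlier results of these data known. CPM are sums over barcodes scaled to 1000000. A start is the lowest or highest position the gene table lists. Of nonzero peak values 86.4% were even, so intervals on accessibility (exact Poisson) used fragments (count / 2, upward), and shares of genes have exact Clopper-Pearson intervals. A floor of 3 counts stood under the other barcodes in each fold. The rule has no doublet step; Scrublet (scanpy 1.11.5; expected rate set to 0.1) called 1154 barcodes (7.52%), which were left out in an alternative. Cell types were the 100 to 500 barcodes outside the class with the highest standardized score of a marker list. Named were the 10 highest folds, the 5 highest class CPM, members within 50000 bp of listed genes, the genes nearest to most members, and the 10 highest and 5 lowest RNA folds among nearest genes with at least 200 UMIs, class genes left out. RefSeq tables of GRCm38.p6 gave gene spans and start sequences; 32158 gene identifiers were in the name table. Sequence of the distal peaks and exon annotation were not used here, nor were windows on chromosome 18. Sums and folds were tested on simulated counts. Among the 200 highest folds, 100% of the eligible peaks given a true fold of 2 or 4 were recovered. For RNA of genes with at least 50 UMIs, 100% were recovered at a true fold of 4 but only 29% at 2. Alternatives covered class size, score, barcode range, doublets, fragments, distance and count limits.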

Additional observations from a re-analysis of the deposited data

How the results depend on the processing

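Comparisons of the class with other groups kept the original 1000 members, chosen for high folds in the class, under every alternative. No direction was reversed, which largely follows from the rule. The order of the lower cell types changed. Class over haemato-endothelial progenitors went from 7.38 to 9.13 with the upper 0.5 of each type and 9.09 without doublet calls. These moved past extraembryonic ectoderm (7.90, 7.93 and 8.27), and in the first case also past ectoplacental cone (8.28) and parietal endoderm (8.86). Which peaks were members depended on the rule. With the 1600 barcodes next in score left out of the others 925 of 1000 were kept, without doublet calls 907, and with a narrower barcode range 841. Fewer were kept with a class of 400 (321) or 1600 barcodes (468) and with the epiblast list as the score (554). Estimated fragments kept 320 and a minimum of 50 class counts 418. A class of 400 and fragments leave fewer eligible peaks, and the lower minimum more. Other limits left the folds unchanged, so their values only count the members that met them. These were over 5000 bp from starts (895), at least 200 class counts (291) and over 1000 bp from RefSeq starts too (982). The last was chosen after seeing the data, and the 41 members on chromosome 18 had no RefSeq starts to be checked against. The summed values that follow are for the original 1000 members, not for members chosen again. Class over other, at 3.02, became 2.97 with 400 barcodes, 3.23 with 1600, 4.18 without the 1600 barcodes next in score, 3.11 without doublet calls, 2.63 with the epiblast list, 2.98 with fragments and 3.14 with only class barcodes whose highest list was epiblast or anterior ectoderm (added after seeing the data). Class over 9 cell types pooled, without anterior ectoderm, was 6.93, and 7.39 with the upper 0.5 of each type, 6.69 with fragments and 7.48 without doublet calls. The visceral endoderm value of 16.2 rose to 20.1 with the upper 0.5 of the type and likewise without doublet calls. The share of nearest genes with higher RNA (22.2%, against 8.59% of genes nearest to eligible peaks, given in brackets from here) was 34.7% at a fold of 1.5 (16.98%) and 8.64% at a fold of 3 (2.61%), and 20.6% (7.23%) to 25.2% (10.5%) under the other settings, with 2 of them added later (24.0% for the gene that holds the peak, 21.0% among genes with 50 UMIs). Members in runs numbered 14 at a gap of 5000 bp and 91 at 50000 bp, against 40. Outside the barcode range, the 200 highest gave 1.82 and the 50 highest 2.26, both added later, against 2.20.

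Motif letters over whole peaks and their central 200 bp were not run, since no genome was used. No paired analysis was possible because there is 1 library per assay. Depth limits single members: a median of 155 class counts is fewer than 100 fragments, and groups of 100 to 250 barcodes leave many members at 0. Cell types rest on scores of few genes, and the library was not replicated.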

Other observations

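The rule left out regions that met its values elsewhere. Of 16538 autosomal peaks within 1000 bp of a start with at least 100 class counts, 48 (0.290%) reached the lowest fold of the members, and of 322 such distal peaks on chromosome X, 25 (7.76%) did, beside 4.71% of eligible autosomal peaks. The highest near a start were at Clec12a (4.18-fold) and Zscan10 (4.16-fold), a zinc finger gene of pluripotent cells whose RNA was 193 CPM in the class and 103 in the others. On chromosome X they included peaks near Gm15169 (4.68-fold) and Bcor (3.73-fold), a corepressor gene with RNA of 137 against 106 CPM, and Klhl13 (3.71-fold), with RNA of 19.3 against 85.9 CPM.

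When the other barcodes were ordered by their member share alone, the 800 highest (pooled share 1.11%) had 4255 RNA CPM of the epiblast list and 865 of the anterior ectoderm list, and 84.6% had 1 of these as their highest list. The class score was 0 in 16.3% of them. The 800 lowest (0.0250%) had 14654 CPM of the visceral endoderm list and 1215 of the epiblast list. These groups were defined by the accessibility itself and describe the library only.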
